A study of Mus musculus with 4 samples.

Results

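Calcium release from the sarcoplasmic reticulum (SR) and its return there were examined through 10 genes, Ryr1, Atp2a1, Atp2a2, Casq1, Casq2, Trdn, Jph1, Jph2, Stac3 and Pvalb, matched by symbol to a table of read counts per gene. Of these 10 genes, 3 were analysed (Jph1, Stac3 and Atp2a2), among 13825 genes in all. The other 7 were not analysed here. All 3 averaged at least 10 counts per library, as did 13084 genes, which were the genes tested.

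RNA-seq was performed on tibialis anterior (TA) muscle from adult male mice on day 14 after sciatic denervation, in sham and denervated muscle of WT mice (WS and WD) and of Fgf21KO mice (KS and KD). Fgf21KO mice lack FGF21, a secreted growth factor, in the whole body, so the deletion was not limited to muscle. WT mice were C57BL/6J by the study's methods, and the strain background of the Fgf21KO mice was not given in the sources used here. The nerve was cut on the left side, and the opposite leg served as the control. By the labels that leg was not operated on, and by the methods it had the operation with the nerve left whole. The methods state that for gene expression work each mouse gave both a sham and a denervated leg. RNA of 4 muscles was pooled in each group, which gives 1 library per group, so a difference between groups cannot be checked in replicates. Counts summed to 25249879 (WS), 29150147 (WD), 34141303 (KS) and 27740920 (KD). The genotype labels could not be checked by the level of Fgf21 itself, which was not analysed here.

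The tissue label was checked against genes of fast fibres, which make up most of the mouse TA. Of 9 such genes, 3 were analysed, and their summed level in CPM, counts scaled to library size, was 41913 (WS), 25476 (WD), 40571 (KS) and 27726 (KD). Myh1, a fast myosin heavy chain, was the most abundant of them in these libraries. Genes of slow fibres were low, with a summed level over 2 of 7 listed genes of 9.34 CPM in WS and 7.37 in KS. CPM here includes the TMM factor of each library, which aligns the bulk of genes.

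In a skeletal muscle fibre, the action potential runs into the T-tubules, where the L-type calcium channel acts as voltage sensor and opens the ryanodine receptor of the apposed SR. The fibre relaxes when SR calcium ATPases (SERCA pumps) return calcium to the lumen, where calsequestrin binds it. Fast fibres rely mainly on SERCA1, whereas slow fibres and the heart use SERCA2, the product of Atp2a2.

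Denervation changed the 3 genes in different directions. Atp2a2, which encodes the slow-fibre and cardiac pump, was over 4 times as high in denervated as in sham muscle of both genotypes. Jph1 and Stac3, which serve calcium release, were lower in denervated muscle of both genotypes. Under TMM both falls were less than 2-fold, with Jph1 close to that limit in Fgf21KO muscle. None of the 3 differed 2-fold between Fgf21KO and WT muscle.

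Jph1 encodes junctophilin 1, which holds the SR against the T-tubule membrane at the triad. It had 11496 counts (WS), 8649 (WD), 13914 (KS) and 7348 (KD), or 495, 265, 468 and 238 CPM. Both sham libraries were high and both denervated libraries low, with WS and KD at the ends of the order. The log2 ratio of WD over WS was -0.90 (95% interval from counting error alone, -0.94 to -0.86), a level 46.5% lower. KD over KS gave -0.98 (-1.02 to -0.94), or 49.3% lower. Among the genes tested, 9.45% had a ratio as low or lower for WD vs WS, and 6.49% for KD vs KS.

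Stac3 encodes an adaptor protein that binds the L-type channel and is needed for its coupling to the ryanodine receptor. Its counts were 5821 (WS), 5414 (WD), 7542 (KS) and 4769 (KD), or 251, 166, 254 and 154 CPM. Again both sham libraries lay above both denervated ones, and under TMM the sham libraries of the genotypes did not differ beyond counting error. The log2 ratio was -0.60 for WD vs WS (-0.65 to -0.54) and -0.72 for KD vs KS (-0.77 to -0.67). These are levels 33.8% and 39.3% lower in denervated muscle. As low or lower a ratio was found for 17.3% of the genes tested for WD vs WS and for 12.5% for KD vs KS.

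Atp2a2 had 1014 counts (WS), 6264 (WD), 1051 (KS) and 5306 (KD), or 43.6, 192, 35.4 and 172 CPM. It was low in both sham libraries and high in both denervated libraries, and within each surgery the Fgf21KO library was the lower one. Its log2 ratio was 2.13 for WD vs WS (2.04 to 2.23), a 4.39-fold rise, and 2.27 for KD vs KS (2.18 to 2.37), a 4.84-fold rise. In WD vs WS, 1.46% of the genes tested had a ratio as high or higher, and for KD vs KS 1.35%.

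**Figure D1:**
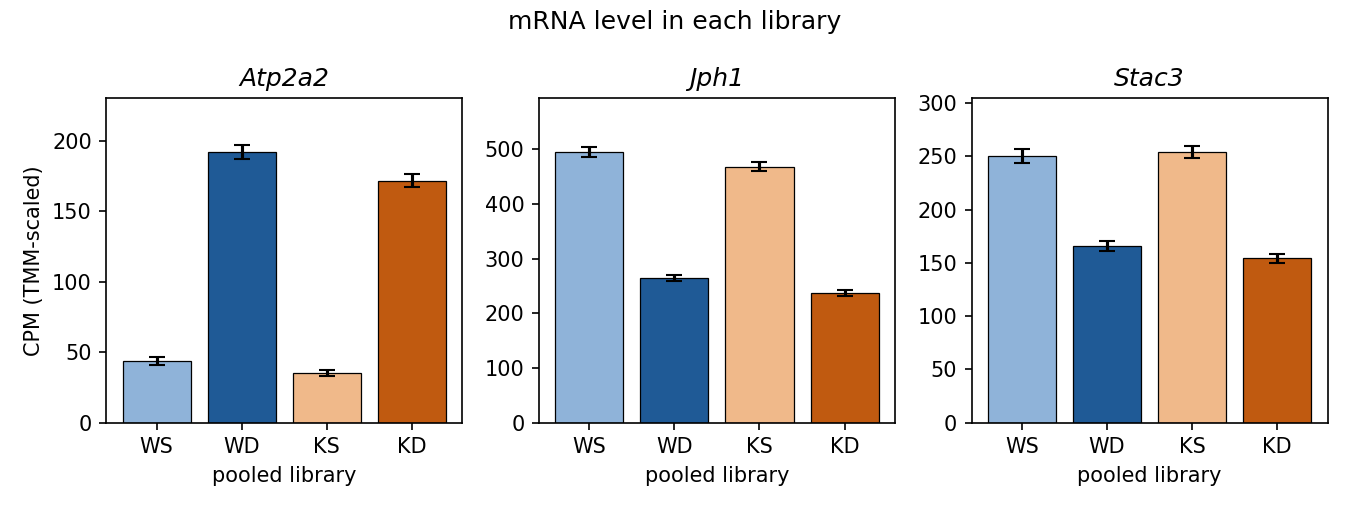
TMM-scaled CPM (y axis, linear from 0) of Atp2a2, Jph1 and Stac3 in the 4 pooled libraries (x axis), with 95% error bars from counting error alone. Atp2a2 stood at 192 and 172 CPM in the denervated libraries against 43.6 and 35.4 in the sham libraries, and Jph1 and Stac3 were higher in sham muscle.

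Of the 3 genes, 1 was at least 2-fold higher and 0 were at least 2-fold lower for WD vs WS, where 7.18% of all genes tested were as much higher and 7.61% as much lower. In KD vs KS the numbers were again 1 and 0, against 7.51% higher and 6.10% lower over all genes. The median log2 ratio of the 3 genes was -0.60 for WD vs WS and -0.72 for KD vs KS, and that of all genes tested was 0.01 in both. With so few genes these counts describe the genes named and say nothing about the other 7.

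Denervation was also tested over all 4 libraries in an additive model of genotype and surgery, with edgeR's quasi-likelihood test and Benjamini-Hochberg adjustment over all genes tested. In that model the libraries of the 2 genotypes stand in as replicates, and the spread of each gene has 1 residual degree of freedom. The test moderates that spread with the spread of all genes tested, so the small p-values and SEs below rest largely on other genes. They do not measure the spread between mice. Atp2a2 rose by 2.21 on the log2 scale (SE 0.08), the 177th highest of 13084 genes, with an adjusted p of 9.31e-20 by edgeR's quasi-likelihood test and Benjamini-Hochberg adjustment. By the same edgeR test with Benjamini-Hochberg adjustment, Jph1 fell by 0.94 (SE 0.07, adjusted p = 3.68e-12) and Stac3 fell by 0.66 (SE 0.07, adjusted p = 6.00e-09). Each direction was seen in both genotypes. With an adjusted p below 0.05 and at least a 2-fold change, 1 of the 3 genes passed as higher (6.84% of all genes tested) and 0 as lower (6.24%). At any fold, 1 passed as higher (26.6% of all genes) and 2 as lower (27.0%).

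Scaling by total counts alone shifted the median of all genes upward by denervation, to 0.29 for WD vs WS and 0.36 for KD vs KS, and the genes that passed as higher became 84.0% of the calls, against 52.3% under TMM. Under that scaling the log2 fold changes for denervation were 2.53 for Atp2a2, -0.62 for Jph1 and -0.34 for Stac3, so no direction turned. Relative to the median of all genes they were 2.20, -0.95 and -0.67, as under TMM.

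Per kilobase of the longest annotated transcript, Stac3 was the highest of the 3 genes in each library and Atp2a2 the lowest. In WS the levels were 140 CPM per kb for Stac3, 103 for Jph1 and 7.69 for Atp2a2. In WD they were 92.7, 55.1 and 33.8 CPM per kb in the same order. The gap between Jph1 and Atp2a2 was thus narrower in denervated muscle, and in KD their levels were 49.4 and 30.2 CPM per kb, against 97.4 and 6.24 in KS. For Atp2a2 the longest transcript, of 5674 bases, exceeds the longest coding one, of 4486 bases. Its levels per kilobase would thus be higher by the coding transcript. The order of Stac3 and Jph1 depended on the length used. Per kilobase of coding sequence, a length chosen after seeing the data, Jph1 stood at 250 CPM per kb in WS and Stac3 at 232, whereas in WD Stac3 (154) was above Jph1 (134).

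In GENCODE M21 on GRCm38, Jph1 lies on chromosome 1 from 16964560 to 17097889 (minus strand), with 2 annotated transcripts, the longest of 4809 bases. Stac3 lies on chromosome 10 from 127501686 to 127508823 (plus strand), with 5 transcripts, the longest of 1790 bases. Atp2a2 lies on chromosome 5 from 122453513 to 122502225 (minus strand), with 5 transcripts, the longest of 5674 bases. The counts are per gene, so its cardiac and slow-fibre form, SERCA2a, and the form of most other tissues, SERCA2b, could not be separated. Jph1 overlaps 1 antisense gene and Atp2a2 overlaps 3 annotated genes, 1 of them on the other strand. Whether counting used strand was not given in the sources used here, so reads from these partners cannot be told apart.

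Other genes of SR release were taken from a list of 23 partners of the release complex, of which 17 were analysed. In the additive model 0 passed as higher and 4 as lower at 2-fold (6.84% and 6.24% of all genes), and 2 and 10 at any fold (26.6% and 27.0%). The median log2 fold change was -0.46, against 0.01 for all genes. With limma, run here and below on the deposited log2 values, so that test and scale both differ, 3 passed as lower. Over all 13084 genes limma called 530 as lower, against 816 with edgeR's quasi-likelihood test. Under total counts 0 of these 17 passed at 2-fold, where 1705 of all 13084 genes were higher and 324 lower. At any fold 6 rose and 9 fell (6116 and 1674 of all genes), and the median was -0.14, against 0.33 for all genes. The 4 that passed as lower were Itpr1 and Itpr3, which encode inositol trisphosphate receptors, Homer1, a scaffold that binds them and the ryanodine receptor, and Calm3, a calmodulin gene. Itpr2, the other receptor gene of that family, did not pass at any fold, with log2 ratios of -0.06 for WD vs WS and 0.36 for KD vs KS.

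Itpr3 had 253 counts (WS), 129 (WD), 165 (KS) and 101 (KD), with log2 ratios of -1.45 for WD vs WS (-1.75 to -1.14) and -0.75 for KD vs KS (-1.11 to -0.40). Itpr1 had 914, 645, 1104 and 480 counts in the same order, with ratios of -0.99 (-1.14 to -0.85) and -1.26 (-1.41 to -1.10). Both receptors were lowest in KD. Homer1 had 1784 counts (WS), 1174 (WD), 2130 (KS) and 998 (KD), and ratios of -1.09 (-1.20 to -0.99) and -1.15 (-1.26 to -1.04). Calm3 had 8935, 5648, 10099 and 5524 counts, and ratios of -1.15 (-1.20 to -1.10) and -0.93 (-0.98 to -0.88). For each of these 4 genes both denervated libraries were below both sham libraries in CPM.

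Stac3 acts on the L-type channel, and Cacna2d1 and Cacnb1, subunits of that channel on the same list, were chosen after their values were seen. Cacna2d1 had 628 CPM (WS), 390 (WD), 651 (KS) and 413 (KD), and fell by 0.67 in the additive model (adjusted p = 3.67e-09, edgeR's quasi-likelihood test and Benjamini-Hochberg adjustment). Cacnb1 stood at 231, 245, 248 and 258 CPM, a log2 fold change of 0.07 that did not pass (adjusted p = 0.433, same edgeR test with Benjamini-Hochberg adjustment). Under total counts Cacnb1 passed as higher at any fold, by 0.39 (adjusted p = 0.000173, same edgeR test with Benjamini-Hochberg adjustment). The median of all genes was 0.33 there, and relative to it Cacnb1 stood at 0.06 and Cacna2d1 at -0.68. The subunits of the channel thus gave different values in the same libraries, with Cacna2d1 close to Stac3 in its ratios over sham.

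For pumps and regulators of calcium uptake and extrusion, 6 of 15 listed genes were analysed, among them Calr and Canx, which encode chaperones. At 2-fold 0 passed as higher and 2 as lower (6.84% and 6.24% of all genes), and at any fold 1 and 4 (26.6% and 27.0%), with a median log2 fold change of -0.68 against 0.01. The 1 that rose was Canx (0.61), named after its values were seen. DESeq2's Wald test also gave 2 as lower, and limma on the deposited values gave 0. Of all 13084 genes these tests called 705 and 530 as lower, against 816 with edgeR's quasi-likelihood test. Under total counts 0 passed at 2-fold, where 1705 of all 13084 genes were higher and 324 lower. At any fold 2 rose and 3 fell, where 6116 of all genes rose and 1674 fell. The 2 that passed as lower were Atp2a3, the third SERCA gene, expressed mostly outside muscle fibres, and Atp2b4, a calcium pump of the plasma membrane. Atp2a3 had 320 counts (WS), 192 (WD), 335 (KS) and 183 (KD), and ratios of -1.22 for WD vs WS (-1.48 to -0.96) and -0.92 for KD vs KS (-1.18 to -0.66). Atp2b4 had 422, 281, 482 and 254 counts, and ratios of -1.07 (-1.29 to -0.85) and -0.98 (-1.20 to -0.76). Of the SERCA genes analysed, Atp2a2 was thus higher and Atp2a3 lower after denervation. Per kilobase of the longest transcript, Atp2a3 had 2.99 CPM in WS and 1.28 in WD, below Atp2a2 in both.

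Calcium can also enter the fibre from outside when the SR store is drained, and mitochondria take up part of what is released. Of 11 listed genes of these routes, 10 were analysed, and at 2-fold 2 passed as higher and 0 as lower (6.84% and 6.24% of all genes). At any fold 4 rose and 3 fell, where 26.6% of all genes rose and 27.0% fell, and the median was -0.07. Under total counts 3 passed as higher (1705 of all 13084 genes), and 6 rose and 0 fell at any fold, where 6116 of all 13084 genes rose and 1674 fell. The 2 that passed were Orai2, a store-operated channel subunit, and Micu2, a regulator of the mitochondrial calcium uniporter.

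Orai2 had 39 counts in WS and 145 in WD, with a log2 ratio of 1.37 (0.86 to 1.88), while KS had 24 and KD 191, with a ratio of 2.83 (2.22 to 3.44). The difference between genotypes, 1.46 (0.67 to 2.26 from counting error alone), was not tested against the spread between mice. Micu2 had 1062 counts (WS), 2982 (WD), 1302 (KS) and 2741 (KD), and its ratio lay at the 2-fold limit in both genotypes (0.90 to 1.10 in WT, 0.92 to 1.11 in Fgf21KO). Orai2 and Micu2 were both higher in each denervated library than in either sham library. With DESeq2's size factors, DESeq2's Wald test or limma 1 gene of the list passed as higher. Of all 13084 genes 879, 703 and 550 passed as higher in the same order, against 895 with edgeR's quasi-likelihood test under TMM.

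Of 9 genes that shape the triad, 5 were analysed and 0 passed at 2-fold with edgeR's quasi-likelihood test, DESeq2's Wald test or limma, while 2 had an unadjusted p below 0.05 in the first. The same 2 genes, Bin1 and Dysf, named after their values were seen, rose at any fold (26.6% of all genes), and the median of the list was 0.13 against 0.01. Bin1, which encodes a protein that bends the T-tubule membrane, had 657 CPM (WS), 1091 (WD), 699 (KS) and 1089 (KD). Dysf, which encodes the membrane repair protein dysferlin, had 106, 136, 94.8 and 140 CPM. Both were higher in each denervated library than in either sham library, opposite to Jph1. Under total counts 1 of the 5 passed as higher at 2-fold and 5 rose at any fold, as did 1705 and 6116 of all 13084 genes.

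**Figure D2:**
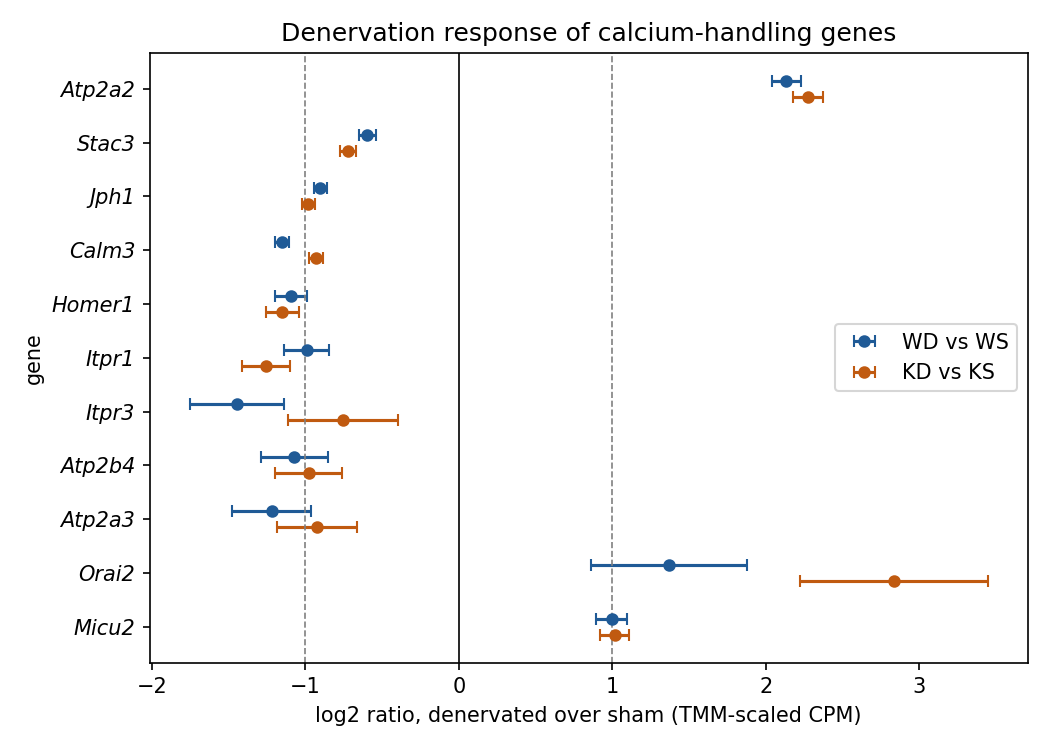
Log2 ratio of denervated over sham muscle (x axis, TMM-scaled CPM) for the 3 SR genes and the 8 listed genes that passed as higher or lower by denervation (y axis), in WT (WD vs WS) and Fgf21KO muscle (KD vs KS), with 95% intervals from counting error alone and dashed lines at 2-fold. Atp2a2, Orai2 and Micu2 lay above 0 in both genotypes and the others below.

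Markers of fibre types and other cells moved in the same libraries. In bulk muscle, fewer cells of a type and less RNA per cell cannot be told apart. Of the 2 slow-fibre genes analysed (of 7 listed), 1 passed as higher (6.84% of all genes), Tnnt1, the most abundant, from 6.28 CPM in WS to 45.4 in WD and from 5.66 in KS to 44.3 in KD. The other, Tnnc1, had 3.06 CPM (WS), 3.12 (WD), 1.72 (KS) and 3.10 (KD) and did not pass, so the summed level of 48.6 CPM in WD and 47.4 in KD is mostly that of Tnnt1. Myh7, the defining slow myosin, was not analysed here, and the part of slow fibres in the rise of Atp2a2 was not tested. The cardiac list, whose cells share SERCA2, had 0 of 6 genes analysed here.

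Of the 3 fast-fibre genes analysed, 0 passed at 2-fold by edgeR's quasi-likelihood test or by DESeq2's Wald test or limma, and 3 fell at any fold (27.0% of all genes) and at an unadjusted p below 0.05, with a median log2 fold change of -0.86. Under total counts 2 fell at any fold, as did 1674 of all 13084 genes. There Myh1 alone of the 3 had opposite signs in the genotypes, -0.35 for WD vs WS and 0.06 for KD vs KS. Relative to the median of all genes, which that scaling moves, Myh1 stood at -0.64 and -0.31. The additive log2 fold change was -0.47 for Myh1, -0.86 for Mylpf and -0.88 for Tnni2, so Stac3 lay among these genes and Jph1 slightly below them. The part of fast fibres in the falls of Jph1 and Stac3 was not tested. The 15 mitochondrially encoded genes took 27.3% of the counts (WS), 19.6% (WD), 30.8% (KS) and 20.8% (KD). With TMM factors set without these genes, the additive log2 fold changes for denervation were 2.20 for Atp2a2, -0.94 for Jph1 and -0.66 for Stac3. With them they were 2.21, -0.94 and -0.66. Any part of these genes beyond the scaling was not tested.

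Smooth muscle genes (5 of 5 analysed) gave 0 higher and 4 lower at 2-fold (6.84% and 6.24% of all genes), and summed levels of 210 CPM (WS), 114 (WD), 197 (KS) and 113 (KD), with Smtn the most abundant. Endothelial genes (5 of 5) gave 0 higher and 2 lower, and 415, 194, 336 and 184 CPM, led by Cdh5. Under total counts 0 genes of either list passed at 2-fold and 4 of 5 in each fell at any fold, where 324 and 1674 of all 13084 genes were lower. The smooth muscle calls were 3 with DESeq2's Wald test and 3 with limma, and the endothelial calls 2 with each. Of all 13084 genes 705 and 530 were lower by these tests, against 816 with edgeR's quasi-likelihood test. Vessel cells also express Itpr1, Itpr3 and Atp2a3, and their part in the falls of these genes was not tested. Macrophage genes (5 of 5) gave 2 higher and 0 lower, and 17.8, 44.6, 19.6 and 43.7 CPM, led by Lyz2. DESeq2's Wald test and limma each called 1 macrophage gene as higher, where 703 and 550 of all 13084 genes were higher. Under total counts 5 passed, where the genes passing as higher were 1705 of 13084 against 895 under TMM.

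The other lists gave 0 calls at 2-fold in the additive model. By library ratio, 1 fibro-adipogenic gene was at least 2-fold lower for WD vs WS (7.61% of all genes). For KD vs KS it was 1 erythroid gene and 1 adipocyte gene (6.10% of all genes). Fibro-adipogenic genes (5 of 5) summed to 580 CPM (WS), 376 (WD), 553 (KS) and 395 (KD), led by Col3a1, and 3 fell at any fold (27.0% of all genes). Erythroid genes (4 of 4) summed to 219, 158, 255 and 131 CPM, led by Hbb-bs, and 4 fell at any fold. Under total counts 1 and 3 genes of these lists fell, as did 1674 of all 13084. Schwann cell genes (2 of 4) summed to 21.9, 15.0, 19.1 and 15.9 CPM, led by Mbp, and the adipocyte list had 1 of 4 analysed, Cidec, at 0.81 to 1.85 CPM. The satellite cell and neuron lists had 0 of 4 genes each analysed here. None of these parts was tested.

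Fgf21KO and WT muscle were compared within each surgery, using the same libraries as for denervation. None of the 3 SR genes (0) was 2-fold higher or lower for KS vs WS, where 0.887% of all genes were higher and 1.15% lower, or for KD vs WD (0.841% and 0.711%). Atp2a2 gave a log2 ratio of -0.30 for KS vs WS (-0.43 to -0.18), with -0.16 for KD vs WD (-0.21 to -0.11). In KS vs WS, 23.9% of the genes tested had a ratio as large or larger in size. Jph1 gave -0.08 (-0.11 to -0.04) and -0.16 (-0.20 to -0.11). Stac3 gave 0.02 (-0.03 to 0.07), which is within counting error under TMM but was -0.06 under total counts, where the median of all genes was -0.08, and -0.11 (-0.16 to -0.05). The median size of the log2 ratio over all genes was 0.15 in sham and 0.11 in denervated muscle.

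For genotype the additive model treats the sham and denervated libraries as replicates, although by the methods each mouse gave both legs. In it 0 of the 3 genes passed for genotype by edgeR's quasi-likelihood test (0.0611% of all genes passed as higher and 0.115% as lower), and 0 passed by DESeq2's Wald test or limma. At an unadjusted p below 0.05, 1 of the 3 genes stood out, Atp2a2, as did 1037 genes (7.93%) of all those tested. Its log2 fold change was -0.22 (SE 0.08), with an adjusted p of 0.296 by edgeR's quasi-likelihood test and Benjamini-Hochberg adjustment. Under total counts 2 of the 3 were lower at an unadjusted p below 0.05, where 231 of all genes were higher and 828 lower. In the lists of release partners, uptake, calcium entry and triad formation 0 genes passed for genotype with edgeR, DESeq2 or limma, and 2, 0, 1 and 1 had an unadjusted p below 0.05 with edgeR. Under total counts these numbers were 5, 0, 2 and 1, and with DESeq2's size factors 1, 0, 1 and 0. Over all genes 444 were higher and 593 lower at that p under TMM, and 440 and 566 with DESeq2's size factors.

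The size of the denervation response was compared between genotypes. The log2 ratio of denervated over sham muscle in Fgf21KO minus that in WT was 0.14 for Atp2a2 (0.01 to 0.28 from counting error alone), -0.08 for Jph1 (-0.14 to -0.02) and -0.12 for Stac3 (-0.20 to -0.05). Under total counts the differences were 0.21, -0.00 and -0.05, but that scaling moves all genes together, by 0.29 in WT and 0.36 in Fgf21KO muscle. Relative to the median of all genes, Jph1 stood there at -0.90 and -0.99 and Stac3 at -0.60 and -0.73, as under TMM. The median size of this difference over all genes was 0.17, and 58.5%, 75.5% and 62.7% of genes had a difference as large or larger. These differences have no test, since no residual degree of freedom is left for one.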

How the data were processed

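RNA of 4 TA muscles per group was pooled and sequenced from stranded mRNA libraries. The authors deposited raw read counts per gene and a second table on a log2 scale, named for FPKM, whose deposited log2 values equal the log2 of 1 plus the count times 1 factor per library. The submitters' processing notes name GRCm39 and FastQC; aligner, counter and annotation were not given in the sources used here. Columns were matched to samples by label and the study's abbreviations.

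Counts were analysed in R 4.3.3 with edgeR 4.0.16, DESeq2 1.42.0 and limma 3.58.1. Genes averaging at least 10 counts were tested, with TMM factors of 0.920 (WS), 1.12 (WD), 0.870 (KS) and 1.12 (KD) and log2 CPM with 2 prior counts. Libraries were compared by log2 ratio, called at 2-fold, with 95% counting intervals; 3 counts correspond to 0.129, 0.0919, 0.101 and 0.0970 CPM. The additive model (common biological coefficient of variation 0.0681) used edgeR's quasi-likelihood test and Benjamini-Hochberg adjustment, called at adjusted p below 0.05 and 2-fold. SE is the log2 fold change over the root of its F. Scripts were tested on simulated data. Positions and lengths are those of GENCODE M21, which holds 13134 of the symbols.

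The members and gene lists were chosen with earlier results of these data known. Genes named are the 3 members, listed genes called for denervation (at most 4 each way), and the most abundant marker of each list; others were chosen after their values were seen. Alternatives were other scalings (DESeq2's size factors, total counts, TMM without mitochondrially encoded genes), filters, prior counts, the deposited log2 values, the exact test of edgeR with biological variation assumed, DESeq2's Wald test, limma on the deposited log2 values, no fold threshold and the tested factor alone.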

Additional observations from a re-analysis of the deposited data

Results flagged for a closer look

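Trim72, a membrane repair gene of the triad list, moved in opposite directions in the genotypes. It had 204 CPM (WS), 233 (WD), 218 (KS) and 199 (KD), log2 ratios of 0.19 in WT (95% counting interval 0.14 to 0.24) and -0.13 in Fgf21KO muscle (-0.18 to -0.08). The difference, -0.32, was not tested, and 27.8% of all genes had a difference as large or larger. Under total counts the ratios were 0.47 and 0.23, both positive, and relative to the median of all genes they were 0.19 and -0.14.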

How the results depend on the processing

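No paired analysis was possible because the mice of a group are in 1 pool and cannot be matched leg by leg, and there was no replicate to leave out. The genotype term of the additive model separates the pools, and the factor alone does not. The alternative of protein length for levels per length was not run, since no protein table was used here.

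Of the values that answer a comparison, 84 kept within 1.5 times the main count or within counting error and 5 moved. With the deposited log2 values at a pseudocount of 0.1, 2 of the 3 SR genes were 2-fold apart for KD vs KS, as Jph1, at -0.98 under TMM, just reached the limit. With edgeR's exact test at an assumed variation of 0.4 it was 0 for WD vs WS and 0 for KD vs KS. That test adds a p-value to the fold, and the ratio of Atp2a2 stayed above 4-fold. Without a fold threshold 3 passed for denervation in the additive model, since Jph1 and Stac3 were below 0.05 in adjusted p but short of 2-fold. Under total counts the genotype difference of Jph1 was -0.00381 (-0.08 under TMM), by the shift of all genes. The cause was not tested for the others. Of the remaining values, 418 stayed and 72 moved. The ratio of Stac3 for KS vs WS, 0.02, changed sign under total counts (-0.06), where the median of all genes was -0.08.

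The additive log2 fold change for denervation ran from 2.16 to 2.53 for Atp2a2, from -0.96 to -0.62 for Jph1 and from -0.67 to -0.34 for Stac3 over 8 alternatives. Adjusted p-values of the tools run (edgeR, DESeq2, limma on the deposited values) ran from 6.95e-93 to 8.21e-09, from 6.86e-27 to 3.66e-06 and from 1.43e-13 to 0.000573. For genotype they ran from 0.149 to 1 for Atp2a2.

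With the deposited values at a pseudocount of 1, the genes with a 2-fold difference numbered 1188 (WD vs WS) and 1117 (KD vs KS) by surgery, 29 (KS vs WS) and 25 (KD vs WD) by genotype, against 1936, 1780, 267 and 203. The exact test at 0.4 gave 63, 81, 0 and 3, and at 0.1 it gave 56 and 51 for the genotype comparisons. A mean count of at least 50 gave 68 and 46. For denervation limma on the deposited values called 1080 genes and the test without a fold threshold 7003, against 1711. For genotype a mean count of at least 50 gave 15, DESeq2's Wald test 13, limma on the deposited values 15, no fold threshold 88 and the factor alone 0, against 23.

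The spread between mice was not measured. By the lowest library of each gene, Orai2 (24 to 191 counts), Cidec (25 to 55) and Tnnc1 (51 to 102) are the named genes with the fewest counts.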
